A study of Mus musculus with 9 samples.

Results

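The 10 genes described here encode the classical MHC class II chains and the proteins that load peptide onto them. They are H2-Aa, H2-Ab1 and H2-Eb1 (class II chains), Cd74 (invariant chain), H2-DMa, H2-DMb1 and H2-DMb2 (subunits of H2-M), H2-Oa and H2-Ob (subunits of H2-O) and Ciita (the class II transactivator). They were taken by symbol, and 10 of 10 were found among the 23234 symbols of each deposited table. RNA was sequenced from CD11b+ monocytes of mouse blood, sorted as Gr-1+ (4 libraries) or Gr-1- (5 libraries); antibodies to Gr-1 bind both Ly6C and Ly6G. All mice were C57BL/6, were 8 months old and carried Yaa, a Y chromosome with an added X segment that holds Tlr7, and about 100000 sorted cells went into each library. The floxed mice that serve as controls carried Yaa too.

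The genotypes were null (Fcgr2-/-.Yaa, 2 Gr-1+ libraries and 1 Gr-1- library), CEBPaCre (CEBPaCre;Fcgr2 fl/fl.Yaa, 1 library of each subset) and CD11cCre (CD11cCre;Fcgr2 fl/fl.Yaa, 1 Gr-1- library). The others were CD19Cre (CD19Cre;Fcgr2 fl/fl.Yaa, 1 library of each subset) and floxed (Fcgr2 fl/fl.Yaa, 1 Gr-1- library). Fcgr2 encodes the inhibitory IgG receptor CD32, and a Cre line removes the floxed gene where its promoter is active: CEBPaCre in myeloid progenitors, CD11cCre in dendritic cells and part of the monocytes, and CD19Cre in B cells. The labels do not say whether libraries came from separate animals or from pools, so a p here reflects spread among libraries, which may be technical.

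Class II molecules display peptides from endosomes to CD4 T cells. The chains pair in the endoplasmic reticulum with the invariant chain, which is then cut down until a short piece fills the groove. H2-M releases that piece and edits the bound peptides, while H2-O binds H2-M and holds it back, a brake best known from B cells and some dendritic cells. CIITA does not bind DNA itself but acts at class II promoters through factors that bind the X box (RFX) and the Y box (NF-Y). C57BL/6 mice do not make the I-E molecule because their H2-Ea gene is defective, so H2-Eb1 RNA has no partner chain there.

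Stretches of promoters are shown because the chains, H2-M and H2-O are known as targets of these factors, while the level of H2-M relative to the chains differed between the subsets. RefSeq promoters (GRCm38.p6, 250 bases before to 50 bases after each gene start) were at hand for 7 of the 10 members. The Y box core TGATTGG, searched on both strands, was found in 6 of the 7, on the given strand, from 92 to 45 bases before the gene start. It was also present in 7.82% of all 32851 promoters of this length. The end of an X box, AACNNATGATG, was found in 4 of the 7 and in 0.137% of all promoters. Its letters are those shared by the members that hold ATGATG 10 to 25 bases before the Y box core, so that share is a description. The 2 motifs do not overlap, and 15 to 18 bases lay between them in those 4 genes. Each stretch runs 5′ to 3′ from 40 bases before the Y box core to 13 bases after it, with the matched letters in capitals.
H2-Aa, chr17:34287854-34287913, minus strand: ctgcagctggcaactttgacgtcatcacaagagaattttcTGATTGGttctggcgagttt
H2-Eb1, chr17:34305766-34305825, plus strand: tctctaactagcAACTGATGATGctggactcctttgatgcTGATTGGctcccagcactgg
H2-DMb1, chr17:34153088-34153147, plus strand: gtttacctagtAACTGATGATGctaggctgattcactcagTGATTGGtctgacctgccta
H2-DMb2, chr17:34145117-34145176, plus strand: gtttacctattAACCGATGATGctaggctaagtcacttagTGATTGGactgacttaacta
H2-Oa, chr17:34092294-34092353, plus strand: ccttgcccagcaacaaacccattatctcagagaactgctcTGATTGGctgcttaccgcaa
H2-Ob, chr17:34238806-34238865, plus strand: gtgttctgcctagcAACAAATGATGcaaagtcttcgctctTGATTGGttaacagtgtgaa
The H2-DMa promoter, listed at 2 starts, held neither set of letters. A match is a run of letters, not evidence that a factor binds there.

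The libraries differed in ways that touch these genes. Expression is in FPKM, which corrects fragment numbers for the length of the transcript and the size of the library, so levels of different genes can be compared per length. Read counts are not given, so the depth is unknown. Relative depth, read off the step size of low FPKM values, ran from 0.702 to 2.66 with the floxed library at 1. Ribosomal protein genes held 1.92% and 2.21% of the summed FPKM in the CD19Cre Gr-1+ and Gr-1- libraries, against 3.63% to 7.65% in the other 7 libraries. Fcgr2b, the targeted gene, was listed at 201, 106 and 145 FPKM in the libraries labelled null and at 74.9 FPKM in the floxed one, so its level did not follow the labels. A gene total cannot show a deleted exon. Genotypes are therefore named only as the libraries are labelled. Monocyte genes were present in every library, with Csf1r (the M-CSF receptor) at 390 to 681 FPKM in Gr-1+ and 468 to 1191 FPKM in Gr-1-. Summed markers of classical monocytes were 2220.1 to 3587 FPKM in Gr-1+ against 59.4 to 138 FPKM in Gr-1-, and those of nonclassical monocytes 471 to 617 FPKM in Gr-1+ against 1555 to 2556 FPKM in Gr-1-.

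The first comparison set Gr-1+ against Gr-1- monocytes. H2-Eb1, H2-Oa and H2-Ob were lower in Gr-1+, and the other 7 members did not pass the test. The chains, Cd74 and H2-O had negative differences, the 3 H2-M genes positive ones, and Ciita lay near 0. With limma on log2(FPKM + 1), 3 of 10 members were called lower in Gr-1+ and 0 were called higher, at an adjusted p at or under 0.05 over all 10436 genes tested. Over all genes, 14.8% were called, 5.95% as lower and 8.84% as higher in Gr-1+. The median log2 difference was -1.30 over the members and 0.09 over all genes tested.

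H2-Aa, the alpha chain of I-A, was listed at 44.9 and 73.3 (null), 345 (CEBPaCre) and 64.2 FPKM (CD19Cre) in Gr-1+ libraries. Gr-1- libraries held 137 (null), 362 (CEBPaCre), 384 (CD11cCre), 362 (CD19Cre) and 301 FPKM (floxed). The CEBPaCre Gr-1+ library lay among the Gr-1- values, while the other Gr-1+ libraries were below all of them. The log2 difference was -1.64 ± 0.54 (SE, limma adjusted p = 0.0672). It passed without the CEBPaCre Gr-1+ library, at -2.27 (limma adjusted p = 0.00277), and without the null Gr-1- library (limma adjusted p = 0.0416). H2-Ab1, the beta chain of I-A, was listed at 66.4 and 108 (null), 463 (CEBPaCre) and 239 FPKM (CD19Cre) in Gr-1+ libraries. Among Gr-1- libraries the values were 196 (null), 479.6 (CEBPaCre), 815 (CD11cCre), 985 (CD19Cre) and 486 FPKM (floxed). The groups overlapped because the null Gr-1- library was below the CD19Cre and CEBPaCre Gr-1+ libraries, and the log2 difference was -1.62 ± 0.59 (limma adjusted p = 0.0971). It too passed without CEBPaCre Gr-1+ (limma adjusted p = 0.0346) and without null Gr-1- (limma adjusted p = 0.0417).

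H2-Eb1, the beta chain of I-E, was listed at 8.97 and 18.5 (null), 90.1 (CEBPaCre) and 13.9 FPKM (CD19Cre) in Gr-1+ libraries. The Gr-1- values were 65.6 (null), 153 (CEBPaCre), 163 (CD11cCre), 123 (CD19Cre) and 139 FPKM (floxed). Only the CEBPaCre Gr-1+ library reached above the lowest Gr-1- library. H2-Eb1 had a mean of 32.9 ± 38.4 among Gr-1+ libraries (SD, n = 4) against 129 ± 38.4 FPKM among Gr-1- (SD, n = 5), 5.47-fold lower in Gr-1+ on the FPKM + 1 scale (log2 difference -2.45 ± 0.55, limma adjusted p = 0.0118). Without the CEBPaCre Gr-1+ library the log2 difference was -3.12. H2-Ea-ps, the defective I-E alpha gene, was listed at 0 in all 4 Gr-1+ libraries and in 3 of 5 Gr-1- libraries, and reached 0.228 FPKM in the floxed one. H2-Eb2, a second beta chain gene, did not exceed 0.542 FPKM in any library.

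Cd74 was the member with the highest level, at 415 and 521 (null), 2231 (CEBPaCre) and 1391 FPKM (CD19Cre) in Gr-1+ libraries. Gr-1- libraries held 655 (null), 1962 (CEBPaCre), 3461 (CD11cCre), 3320.1 (CD19Cre) and 2425 FPKM (floxed). The subsets overlapped, since the null Gr-1- library was below CEBPaCre and CD19Cre Gr-1+, and CEBPaCre Gr-1- was below CEBPaCre Gr-1+. The log2 difference was -1.17 ± 0.59 (limma adjusted p = 0.233). The invariant chain followed the beta chain across libraries: per length, Cd74 was 4.82 to 6.25 times H2-Ab1 in Gr-1+ and 3.34 to 4.99 times in Gr-1- libraries.

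**Figure D1:**
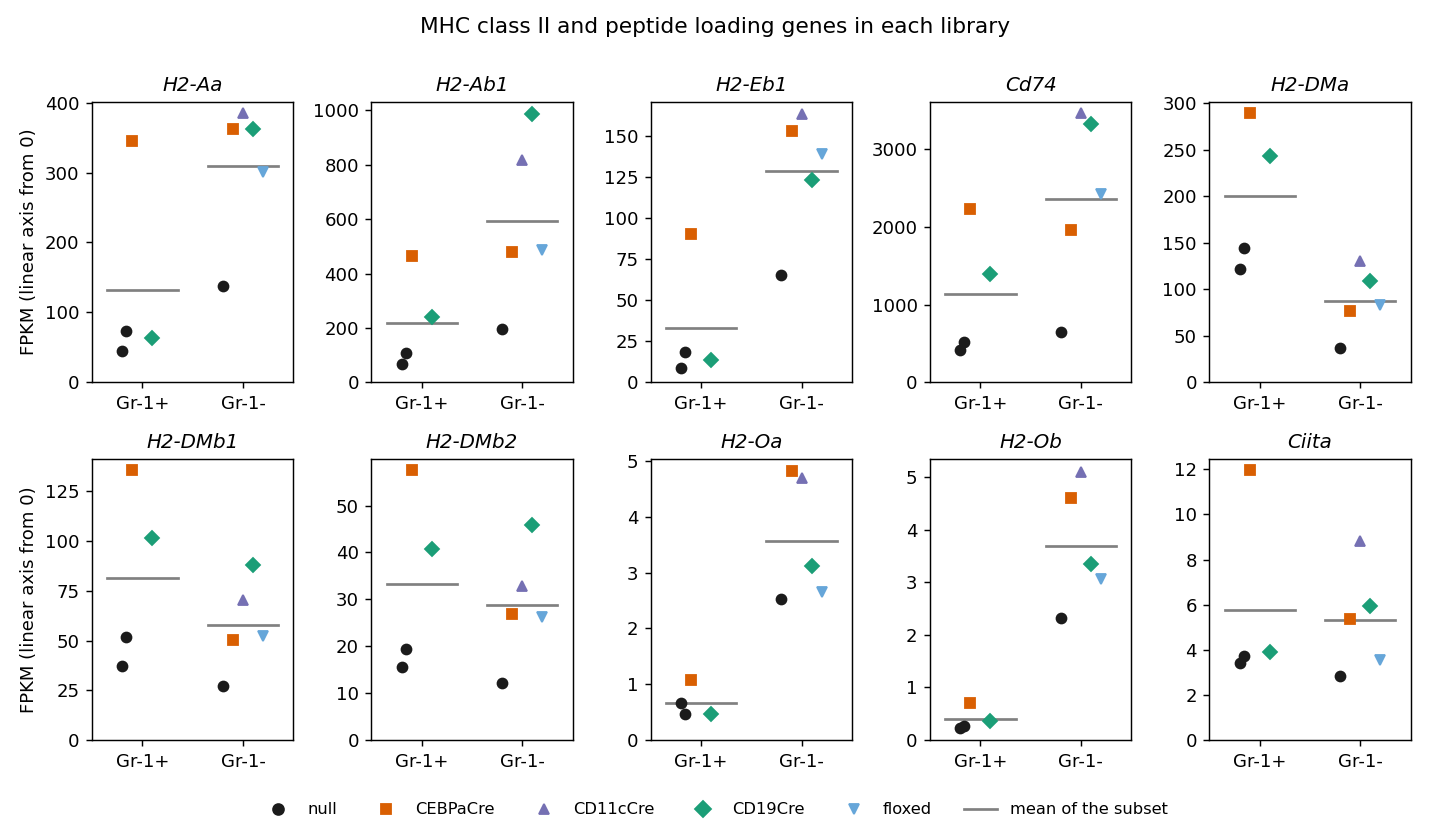
FPKM of the 10 members in each library (linear axes from 0), with Gr-1+ left of Gr-1-; symbols give the labelled genotype and grey lines the mean of each subset. H2-Oa and H2-Ob show no overlap between subsets, the CEBPaCre library is the highest Gr-1+ library in every panel, and the null library is the lowest Gr-1- library in every panel.

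The H2-M genes had higher means in Gr-1+, without passing the test. H2-DMa, its alpha chain, was listed at 122 and 145 (null), 289 (CEBPaCre) and 243 FPKM (CD19Cre) in Gr-1+ libraries. Among Gr-1- libraries the values were 37.0 (null), 76.9 (CEBPaCre), 131 (CD11cCre), 109 (CD19Cre) and 83.7 FPKM (floxed). A single pair of libraries overlapped, CD11cCre Gr-1- above the lower null Gr-1+ library, and the log2 difference was 1.21 ± 0.38 (limma adjusted p = 0.0558). With genotype as a replicate block the log2 difference was 1.64 and it passed the test (limma adjusted p = 0.00164). That fit called 2712 genes against 1544 without the block. CD11cCre and floxed have a Gr-1- library only, so in the block fit they do not bear on the subset difference. CD11cCre is the Gr-1- library that overlapped for H2-DMa. H2-DMa was also called, higher in Gr-1+, under upper quartile scaling (limma adjusted p = 0.037), without null Gr-1+ replicate 1 (0.048) and without the CD11cCre library (0.0429).

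H2-DMb1, a beta chain of H2-M, was listed at 37.4 and 51.7 (null), 136 (CEBPaCre) and 102 FPKM (CD19Cre) in Gr-1+ libraries. The Gr-1- values were 27.4 (null), 50.5 (CEBPaCre), 70.5 (CD11cCre), 88.0 (CD19Cre) and 52.1 FPKM (floxed). H2-DMb2, its close copy, was listed at 15.5, 19.5, 57.6 and 40.8 FPKM in the same order of Gr-1+ libraries, and at 12.2, 26.8, 32.8, 45.8 and 26.3 FPKM in that of Gr-1- libraries. Both genes overlapped widely between subsets, with log2 differences of 0.41 ± 0.42 and 0.13 ± 0.43 (limma adjusted p = 0.583 and 0.887). Of the 50-base words in GENCODE transcripts of H2-DMb1, 27.2% also occur in H2-DMb2 and 21.2% the other way round, so the split of reads between them is uncertain. H2-DMb2 stayed at 0.376 to 0.424 times H2-DMb1 in Gr-1+ and 0.444 to 0.531 times in Gr-1- libraries.

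H2-O was the group with the clearest separation. H2-Oa, its alpha chain, was listed at 0.666 and 0.476 (null), 1.08 (CEBPaCre) and 0.458 FPKM (CD19Cre) in Gr-1+ libraries. Gr-1- libraries held 2.53 (null), 4.82 (CEBPaCre), 4.70 (CD11cCre), 3.12 (CD19Cre) and 2.66 FPKM (floxed). H2-Ob, its beta chain, was listed at 0.228 and 0.272 (null), 0.702 (CEBPaCre) and 0.366 FPKM (CD19Cre) in Gr-1+ libraries, and at 2.31 (null), 4.60 (CEBPaCre), 5.10 (CD11cCre), 3.34 (CD19Cre) and 3.06 FPKM (floxed) in Gr-1- libraries. No Gr-1+ library reached a Gr-1- library for either gene, which are the 2 of 10 members without overlap, a separation shown by 16.5% of all tested genes, 6.26% with Gr-1- and 10.2% with Gr-1+ as the higher subset.

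H2-Oa had a mean of 0.671 ± 0.291 among Gr-1+ libraries (SD, n = 4) against 3.57 ± 1.11 FPKM among Gr-1- (SD, n = 5), with a log2 difference of -1.43 ± 0.22 (limma adjusted p = 0.0011). H2-Ob had a mean of 0.392 ± 0.214 among Gr-1+ libraries against 3.68 ± 1.14 FPKM among Gr-1- (SD, n = 4 and 5), with a log2 difference of -1.73 ± 0.22 (limma adjusted p = 3.0e-04). Both levels are near the 1 FPKM added before the log, so these log2 values understate the change. At a pseudocount of 0.1 FPKM they were -2.27 and -2.98. H2-Ob was 0.343 to 0.800 times H2-Oa in Gr-1+ libraries and 0.914 to 1.15 times in Gr-1- libraries.

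Ciita, which drives the class II genes, was listed at 3.43 and 3.71 (null), 12.0 (CEBPaCre) and 3.90 FPKM (CD19Cre) in Gr-1+ libraries. Among Gr-1- libraries the values were 2.83 (null), 5.38 (CEBPaCre), 8.84 (CD11cCre), 5.96 (CD19Cre) and 3.54 FPKM (floxed). The subsets overlapped throughout, the log2 difference was 0.02 ± 0.36 (limma adjusted p = 0.986), and its sign turned under upper quartile scaling and quantile normalization.

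**Figure D2:**
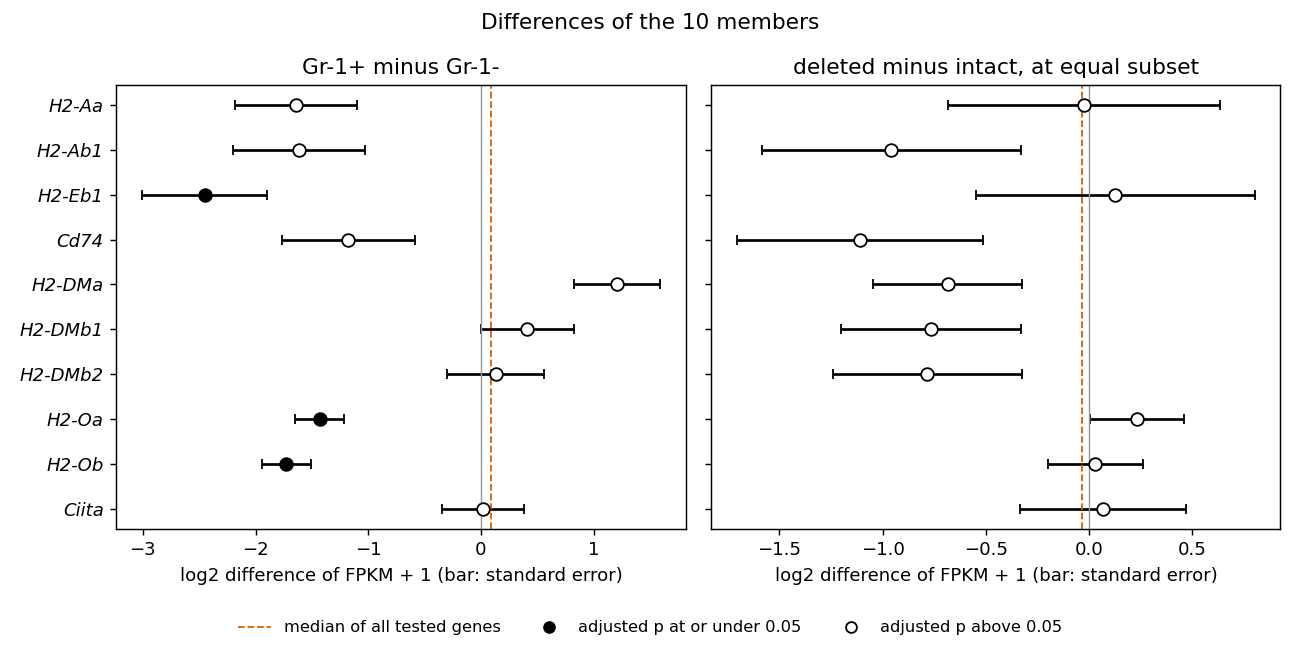
Log2 difference of FPKM + 1 for each member, Gr-1+ minus Gr-1- (left) and deleted minus intact at equal subset (right); bars are standard errors, filled points passed the limma test and the dashed line is the median of all tested genes. H2-Eb1, H2-Oa and H2-Ob are filled on the left, at -2.45, -1.43 and -1.73, and no point is filled on the right.

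Markers of several other cell types also differed in level between the subsets, in both directions. Of the B cell markers reported, 9 of 9 had a higher mean in Gr-1-, and Ebf1 was listed at 0 in every Gr-1+ library. Their summed level was 9.39 to 18.8 FPKM among Gr-1+ libraries against 44.1 to 130.3 FPKM among Gr-1-. Pax5, the defining B cell factor, did not exceed 0.133 FPKM in any library. The part of these markers in the class II and H2-O differences was not tested.

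Within Gr-1-, the null library had the lowest sum of these markers. Its Cd79a (a B cell receptor subunit) was at 5.08 FPKM, against 16.3 to 29.1 FPKM in the other Gr-1- libraries. This library was also the lowest of Gr-1- for 10 of 10 members, H2-Oa and H2-Ob included, as it was for 18.9% of all tested genes. Its sum of 44.1 FPKM was above that of every Gr-1+ library, as were its Cd79a, its Cd22 at 14.3 FPKM (0.603 to 3.21 FPKM in Gr-1+) and its Cd79b at 24.2 FPKM (7.82 to 17.0 FPKM in Gr-1+). Its Ms4a1 (CD20), at 0.165 FPKM, was level with the highest Gr-1+ library, and its Blk was listed at 0. Among Gr-1- libraries, Cd22 and Cd79b were highest in CD11cCre, at 53.6 and 51.0 FPKM, while Cd79a and Ms4a1 were highest in floxed, at 29.1 and 9.35 FPKM. H2-Ob was highest in CD11cCre, at 5.10 FPKM, and H2-Oa in CEBPaCre, at 4.82 FPKM.

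Of the conventional dendritic cell markers, 5 of 8 had a higher mean in Gr-1- and 3 in Gr-1+. Their sum was 36.0 to 70.1 FPKM among Gr-1+ libraries against 21.6 to 91.2 FPKM among Gr-1-. Cd209a, a lectin of dendritic cells and of some monocytes, was listed at 13.1 FPKM in CEBPaCre Gr-1+ cells and 0 to 1.47 FPKM in the other Gr-1+ libraries. In Gr-1- it ran from 3.98 FPKM in the null to 58.3 FPKM in the CD11cCre library. In both subsets the library with the most Cd209a also held the most Cd74, and the one with the least held the least. CEBPaCre was the highest of Gr-1+ for 26.5% of all tested genes, and null the lowest of Gr-1- for 18.9%. Other genes did not match: H2-Ab1 was highest of Gr-1- in CD19Cre, at 985 FPKM, where Cd209a was at 20.3 FPKM. Xcr1, of the same marker list, was at 3.57 FPKM in the null Gr-1- library, which held the least Cd74 of Gr-1-. Clec9a, a marker of cross-presenting dendritic cells, did not exceed 0.428 FPKM, and Siglech, of plasmacytoid dendritic cells, was at 0.0546 to 1.15 FPKM. NK cell markers summed to 0.546 to 1.13 FPKM in Gr-1+ against 18.1 to 279 FPKM in Gr-1-. Neutrophil markers summed to 36.8 to 329 FPKM in Gr-1+ against 8.90 to 75.3 FPKM in Gr-1-. The Gr-1- sums were mostly Retnlg, at 8.73 to 75.0 FPKM. No other marker of that list exceeded 0.638 FPKM in Gr-1-, and Camp was listed at 0 in every Gr-1- library. T cell markers summed to at most 1.26 FPKM in Gr-1+ against 14.1 FPKM in Gr-1- libraries. That highest sum, in CD11cCre Gr-1-, was mostly Lck at 12.9 FPKM, with Cd3e listed at 0. Among Gr-1- libraries Cd3e was above 0 only in floxed, at 2.04 FPKM. In such bulk libraries, fewer cells of a type and less RNA per cell cannot be told apart, and the part of any of these markers in the class II differences was not tested.

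**Figure D3:**
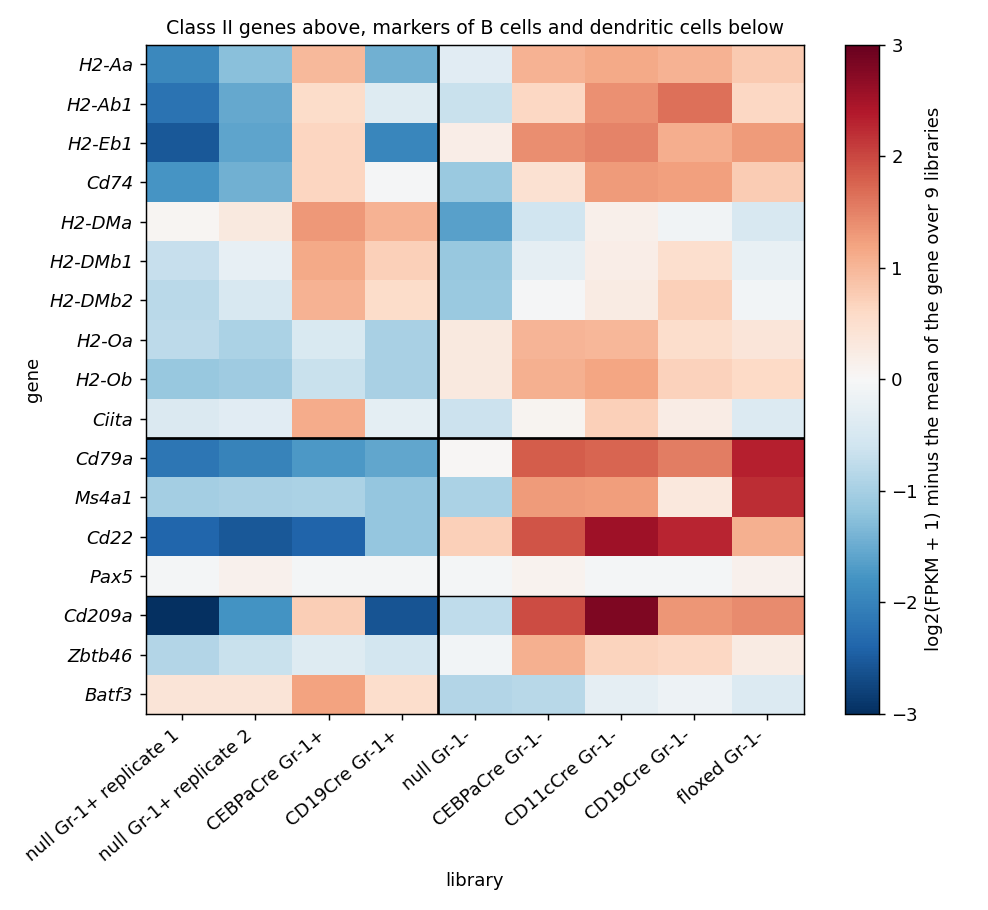
Colour gives log2(FPKM + 1) minus the mean of each gene over the 9 libraries, for the 10 members (top) and for markers of B cells (Cd79a to Pax5) and dendritic cells (Cd209a to Batf3); Gr-1+ libraries are left of the black line. The CEBPaCre Gr-1+ column is warm for the class II chains, Cd74, H2-M and Ciita but not for H2-O or the B cell markers.

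The loading genes were then set against the chains within each library. The 4 ratios tested were chosen with earlier results of these data known, not before the data were seen. H2-DMa was 2.72 and 1.97 (null), 0.837 (CEBPaCre) and 3.79 times (CD19Cre) the level of H2-Aa in Gr-1+ libraries. In Gr-1- libraries it was 0.270 (null), 0.213 (CEBPaCre), 0.340 (CD11cCre), 0.302 (CD19Cre) and 0.278 times H2-Aa (floxed). Every Gr-1+ library, CEBPaCre included, held more H2-DMa per H2-Aa than any Gr-1- library. The mean log2 ratio of FPKM + 1 was 1.01 ± 0.93 in Gr-1+ (SD, n = 4) and -1.84 ± 0.25 in Gr-1- libraries (SD, n = 5). This was 7.20-fold higher in Gr-1+ (exact two-sided permutation p = 0.0159, adjusted p = 0.0317 over the 4 ratios tested), the smallest p that 126 assignments allow.

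H2-DMb1 was 0.563 and 0.480 (null), 0.293 (CEBPaCre) and 0.426 times (CD19Cre) the level of H2-Ab1 in Gr-1+ libraries. In Gr-1- libraries it was 0.140 (null), 0.105 (CEBPaCre), 0.0865 (CD11cCre), 0.0893 (CD19Cre) and 0.107 times H2-Ab1 (floxed). Again there was no overlap between the subsets, and the ratio was 4.08-fold higher in Gr-1+ (log2 difference 2.03, exact permutation p = 0.0159, adjusted p = 0.0317). Both ratios also had no overlap at pseudocounts of 0.1 and 5 FPKM. With any single library left out, both still had no overlap and stood at the smallest p allowed, an exact permutation p of 0.0286 or 0.0357. Adjusted over the 4 ratios this was 0.0571 or 0.0714, so neither passed. No lower adjusted value was possible while the H2-O ratios stayed above that smallest p.

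H2-O did not part from the chains in the same way. H2-Oa was 0.00314 to 0.0148 times H2-Aa in Gr-1+ and 0.00860 to 0.0184 times in Gr-1- libraries. The log2 difference of that ratio was 0.21 (exact permutation p = 0.746, adjusted p = 0.857) and turned to -0.61 at a pseudocount of 0.1 FPKM. H2-Ob was 0.00152 to 0.00344 times H2-Ab1 in Gr-1+ and 0.00339 to 0.0118 times in Gr-1- libraries. The log2 difference was -0.11 (exact permutation p = 0.857, adjusted p = 0.857). It became -1.36 (exact permutation adjusted p = 0.0423) at a pseudocount of 0.1 FPKM and 0.91 at 5 FPKM. H2-Ob was at most 0.702 FPKM in Gr-1+, so an added 1 or 5 FPKM outweighs it there. Without a pseudocount, the mean ratio of H2-Ob to H2-Ab1 was 0.00225 in Gr-1+ against 0.00747 in Gr-1-. For H2-Oa to H2-Aa it was 0.00790 against 0.0123. Both overlapped between the subsets and were not tested in this form, so no direction is given for H2-O against the chains.

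H2-O was also set against H2-M itself, a comparison chosen after the values were seen and given without a test. H2-Oa was 0.00545 and 0.00329 (null), 0.00375 (CEBPaCre) and 0.00189 times (CD19Cre) H2-DMa in Gr-1+ libraries. In Gr-1- libraries it was 0.0683 (null), 0.0627 (CEBPaCre), 0.0359 (CD11cCre), 0.0285 (CD19Cre) and 0.0318 times H2-DMa (floxed). H2-Ob was 0.00360 to 0.00611 times H2-DMb1 in Gr-1+ and 0.0380 to 0.0910 times in Gr-1- libraries. In every library of both subsets the brake was far below its target in RNA.

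**Figure D4:**
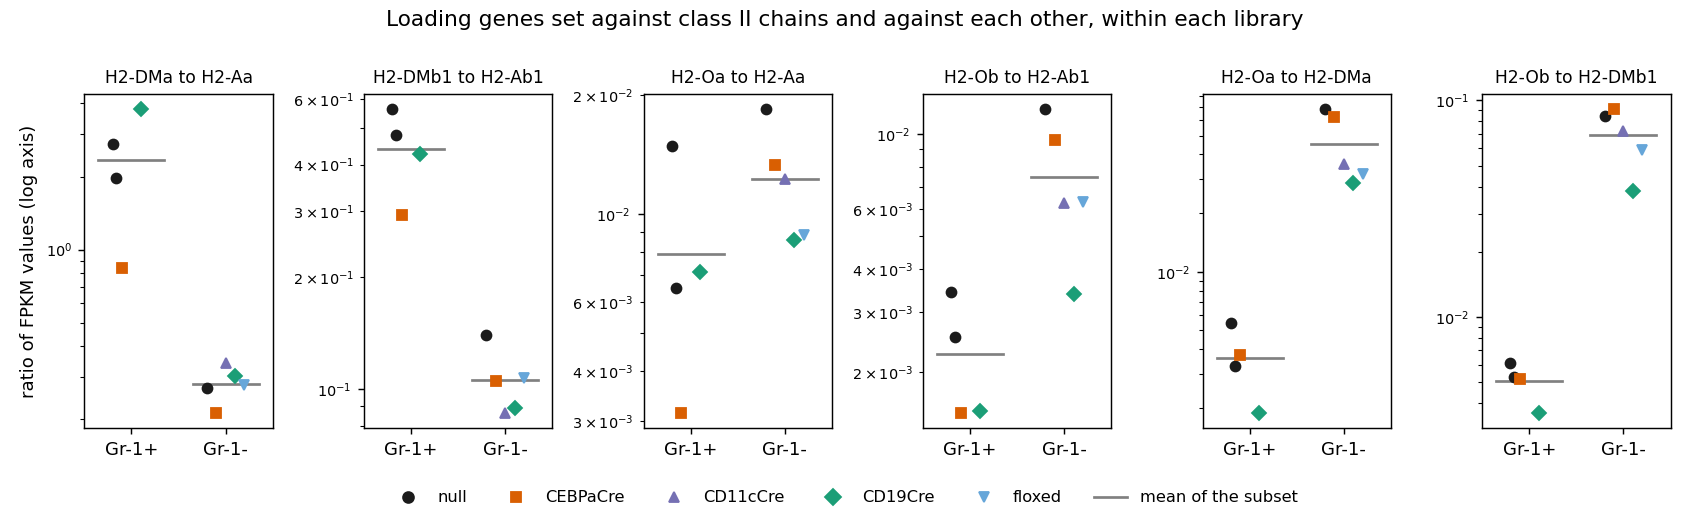
Ratios of FPKM values within each library (log axes, a scale of its own for each panel), Gr-1+ left of Gr-1-; symbols give the labelled genotype and grey lines the mean ratio of each subset. The 2 panels of H2-M against the chains and the 2 panels of H2-O against H2-M show no overlap, whereas the panels of H2-O against the chains do.

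The correlation of the members in log2(FPKM + 1) across the 9 libraries is given as a description. Pearson's r was 0.80 to 0.98 among the chains and Cd74, 0.71 to 0.97 among the H2-M genes and 0.99 between H2-Oa and H2-Ob. Between the chains with Cd74 and H2-M it was -0.31 to 0.77. After the mean of each subset was taken out, the same pairs had r of 0.68 to 0.99, so within a subset H2-M varied with the chains. H2-O with the chains and Cd74 had r of 0.64 to 0.90 over the 9 libraries and 0.47 to 0.74 on that scale. For H2-M with H2-O the values were -0.55 to 0.10 and 0.41 to 0.78. The ranges within and between these groups overlapped, so the groups were not separate. The libraries of a subset share its gate and some share a genotype label, so these values carry no p.

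The genes most like 4 of the members, by r over the 9 libraries among 6622 or 6623 genes whose mean reached 5 FPKM, were as follows. H2-Ab1 was followed by Cd74 (0.97), Tut1 (0.96), H2-T9 (0.95), H2-Q1 (0.95) and H2-Bl (0.95), of which the last 3 are class I genes that share sequence with each other. H2-DMa was followed by Snrpa and Trafd1 (0.97 each), Ms4a4b and Hnrnpc (0.96 each) and Lgals1 (0.95). Those like H2-Oa included Arhgap4 (0.99), L1cam, Itgal and Sh2d3c (0.98 each). For Ciita, the values were lower, with Aarsd1 and Itm2c (0.91 each) first, then Akr1b10, Parp10 and Rbm43 (0.90 each).

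The second comparison asked whether the members differed in libraries labelled as lacking Fcgr2 in myeloid cells. Null and CEBPaCre formed the deleted group (5 libraries), set against CD19Cre with floxed as intact (3 libraries), with subset as a covariate and the CD11cCre library left out. No member passed, with log2 differences from -1.11 ± 0.59 for Cd74 to 0.23 ± 0.23 for H2-Oa (SE, limma adjusted p = 0.41 and 0.629). With limma, 0 of 10 members were called, against 0% of 10429 genes, and 0 members and 1470 genes had an unadjusted p under 0.05. The member count was 5 without the CEBPaCre Gr-1+ library (1128 genes) and 5 with null as the only deleted genotype (1067 genes), each time Cd74, H2-Ab1 and the 3 H2-M genes, all lower in deleted libraries in value. With null alone, Cd74 differed by -1.85 and H2-Ab1 by -1.65 on the log2 scale, and none of the 5 passed (limma adjusted p = 0.472). The interaction of deletion and subset, which rests on 1 intact Gr-1+ library, called 0 of 10 members and 0.0863% of all genes, 0.0479% with a positive and 0.0384% with a negative value. The lowest limma adjusted p among the members was 0.882, for H2-Aa.

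Single libraries of the deleted group stood at the top of Gr-1+ and at the bottom of Gr-1-. Within Gr-1+, the CEBPaCre library was the highest of 4 for 10 of 10 members, a pattern that 26.5% of all tested genes showed. Its level was 1.25-fold to 9.14-fold that of null replicate 1, 1.34-fold to 4.68-fold that of null replicate 2 and 1.19-fold to 6.11-fold that of CD19Cre, on the FPKM + 1 scale. This library also had the highest summed markers of conventional dendritic cells within Gr-1+, at 70.1 against 36.0 to 40.7 FPKM, a sum carried by Batf3, Clec10a and Cd209a. Of the same list, Flt3 at 3.60 FPKM and Xcr1 at 1.10 FPKM were below both null Gr-1+ libraries, at 7.76 and 8.97 FPKM of Flt3 and 1.76 and 2.07 FPKM of Xcr1. Among plasmacytoid dendritic cell markers it had the most Bst2, which interferon also induces, at 148 against 41.1 to 73.4 FPKM, but less Siglech than null replicate 2, at 0.0993 against 0.466 FPKM, and the least Ccr9, at 0.222 FPKM. The part of these markers was not tested. The median log2 ratio over all tested genes was 0.08 against null replicate 1, 0.27 against null replicate 2 and -0.0084 against CD19Cre. Within Gr-1-, the null library was the lowest of 5 for 10 of 10 members, against 18.9% of all tested genes. Its levels were 0.270 to 0.964 times those of the floxed library on the FPKM + 1 scale. The median log2 ratio of null to floxed was -1.06 over the members and 0.12 over all tested genes. The CD11cCre library held 1.17-fold to 2.17-fold the level of the floxed one across the members, on the FPKM + 1 scale. In log2 this ran from 0.23 for H2-Eb1 to 1.12 for Ciita. The median gene was also higher in CD11cCre, by 0.35, so a higher level there is not particular to the members. These patterns were picked after the values were seen, each rests on a single library, and no test was made.

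The gap between the subsets differed in size between libraries of different genotype label. CEBPaCre and CD19Cre have 1 library of each subset, and this was not tested. In the CEBPaCre libraries, H2-Aa was nearly level, at 345 FPKM in Gr-1+ against 362 FPKM in Gr-1-. In the CD19Cre libraries it was 64.2 FPKM in Gr-1+ against 362 FPKM in Gr-1-. For H2-Ob, the CEBPaCre pair still stood at 0.702 FPKM in Gr-1+ against 4.60 FPKM in Gr-1-. H2-DMa was 289 against 76.9 FPKM in CEBPaCre, 243 against 109 FPKM in CD19Cre, and 122 and 145 against 37.0 FPKM in null, Gr-1+ before Gr-1- each time. The 2 null Gr-1+ libraries, the only replicates of a genotype in a subset, differed less from each other than from CEBPaCre for every chain.

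The wider class II pathway was followed in lists. Of 14 genes of class II transcription, 13 were found and tested, and 0 passed with limma, where 14.8% of all genes were called. So short a list was not tested against that share. Those with the smallest p were Irf8, Irf1, Rfxap and Irf4. Irf8, a factor of monocyte and dendritic cell fate, had a mean of 126 ± 44.0 among Gr-1+ libraries against 80.8 ± 36.9 FPKM among Gr-1- (SD, n = 4 and 5), with a limma adjusted p of 0.217 that became 0.00553 with the genotype block. Rfxap, a subunit of RFX, had a mean of 13.8 ± 5.27 among Gr-1+ libraries against 9.25 ± 2.77 FPKM among Gr-1-, with a limma adjusted p of 0.262 that became 0.0225 with the block. Irf1, which acts on the interferon promoter of Ciita, had a mean of 61.7 ± 27.5 among Gr-1+ libraries against 94.4 ± 29.5 FPKM among Gr-1-. Irf4 had a mean of 5.64 ± 4.17 among Gr-1+ libraries against 2.41 ± 1.37 FPKM among Gr-1-. Among Gr-1+ libraries, Irf1 and Irf4 were both highest in CEBPaCre, at 98.9 and 10.4 FPKM.

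Of 8 genes of antigen processing in endosomes tested, 3 were higher in Gr-1+, 1 was lower and 4 did not pass, with a median log2 difference of 0.37. Over all genes, 8.84% were called higher and 5.95% lower in Gr-1+, and the lists were not tested against each other. Ifi30, the thiol reductase GILT that opens disulfide bonds of antigens, had a mean of 428 ± 201 among Gr-1+ libraries against 84.3 ± 22.7 FPKM among Gr-1- (SD, n = 4 and 5, limma adjusted p = 0.00361). Its Gr-1+ libraries ran from 145 FPKM in CD19Cre to 590.4 FPKM in null replicate 1, all above the 110.2 FPKM that was highest in Gr-1-. Ctsl, a protease known to cut the invariant chain in thymic epithelium, had a mean of 34.8 ± 8.99 among Gr-1+ libraries against 15.5 ± 3.28 FPKM among Gr-1- (limma adjusted p = 0.0066). Ctsh had a mean of 429 ± 97.6 among Gr-1+ libraries against 192 ± 67.3 FPKM among Gr-1- (limma adjusted p = 0.0135). Cst3, a cysteine protease inhibitor, was the gene lower in Gr-1+, at 1785 ± 398 FPKM against 4112 ± 736 FPKM in Gr-1- (limma adjusted p = 0.00628), a call lost with no filter on the mean (adjusted p = 0.0921). Ctss, the main protease of the invariant chain in such cells and named for that role after its values were seen, had a mean of 1508 ± 177 among Gr-1+ libraries against 1121 ± 145 FPKM among Gr-1- and did not pass (limma adjusted p = 0.202).

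Of the genes of class II turnover, Cd83, which holds class II at the surface by opposing its ubiquitination, was the 1 gene tested. It was listed at 2.80 and 1.45 (null), 1.68 (CEBPaCre) and 1.13 FPKM (CD19Cre) in Gr-1+ libraries. The Gr-1- values were 14.0 (null), 38.3 (CEBPaCre), 50.4 (CD11cCre), 2.71 (CD19Cre) and 29.3 FPKM (floxed). The CD19Cre library was the only Gr-1- library within the Gr-1+ range, and Cd83 was 7.50-fold lower in Gr-1+ (log2 difference -2.91, limma adjusted p = 0.0105). Without the CD19Cre Gr-1- library the log2 difference was -3.52.

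Class I presentation served for comparison with class II. Of 10 genes tested, 2 were lower in Gr-1+, and the other 8 were not called, with a median log2 difference of 0.11, where 14.8% of all genes were called and 5.95% were lower in Gr-1+. H2-K1, a class I heavy chain, had a mean of 540.0 ± 94.3 among Gr-1+ libraries against 1252 ± 314 FPKM among Gr-1- (SD, n = 4 and 5, limma adjusted p = 0.011). H2-D1 had a mean of 1754 ± 327 among Gr-1+ libraries against 3446 ± 958 FPKM among Gr-1- (limma adjusted p = 0.037). The call of H2-D1 was lost under 10 alternatives, which were the genotype block (adjusted p = 0.0673), no filter on the mean (0.206), leaving out both CD19Cre libraries (0.0511) and leaving out any of 7 single libraries, all but CD19Cre Gr-1+ and null Gr-1- (up to 0.104). B2m had a mean of 2503 ± 1218 among Gr-1+ libraries against 4519 ± 1226 FPKM among Gr-1- and did not pass (limma adjusted p = 0.166), and the CD19Cre Gr-1+ library lay far below the other Gr-1+ libraries at 713 FPKM. Pdia3, a disulfide isomerase of the class I loading complex, had a mean of 241 ± 92.1 among Gr-1+ libraries against 141 ± 41.9 FPKM among Gr-1- (limma adjusted p = 0.112, and 0.0111 with the block).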

How the data were processed

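RNA was sequenced from 9 libraries of sorted blood monocytes. The deposited values are FPKM for each gene symbol, made by the authors for each library. Per the submitters' processing notes, TopHat2 2.0.8, Cufflinks 2.1.1 and the mm9 build were used; the annotation and settings are not given in the sources used here. No read counts are given, so no counting error is stated, and a gene listed at 0 may be a failed estimate.

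Linear models were run on log2(FPKM + 1) in R 4.3.3 with limma 3.58.1 (trended eBayes). Tested genes had a mean across all 9 libraries of 1 FPKM or more, and were above 0 in 2 or more of those fitted. Benjamini-Hochberg adjustment ran over all tested genes, with calls at 0.05. All 10 members passed the filter. Ratios were compared by exact permutation in scipy 1.17.1. The fits were tested on simulated data with known changes. Promoters come from RefSeq and transcripts from GENCODE, both GRCm38, so they are not tied to the coordinates of the mm9 alignment. Spi1, Sppl2a, March1, March8 and H2-Ea, which belong to the pathway lists, were not analysed here.

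Same-genotype libraries of the 2 subsets were checked for pairing by the correlation, across genes, of their deviations from the subset means. It was 0.16 to 0.59 for the 4 same-genotype pairs and -0.38 to 0.25 for the 16 others, so genotype was used as a block in an alternative fit. The subset difference of that fit rests on null, CEBPaCre and CD19Cre, the genotypes with libraries of both subsets. The labels do not say that such libraries share a mouse. The members, lists, ratios and named genes were chosen with earlier results of these data known. Named genes were the members, up to 4 genes per pathway list with the smallest p and the 5 genes most like each of 4 members. A gene of the B cell list and a gene among those most like H2-Oa are not reported here.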

Additional observations from a re-analysis of the deposited data

Results flagged for a closer look

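In the CEBPaCre Gr-1+ library, H2-Aa at 345 FPKM, H2-Eb1 at 90.1 FPKM, Ciita at 12.0 FPKM and H2-K1 at 681 FPKM stood far from the other 3 Gr-1+ libraries. Those held 44.9 to 73.3 FPKM of H2-Aa, 8.97 to 18.5 FPKM of H2-Eb1, 3.43 to 3.90 FPKM of Ciita and 487 to 497 FPKM of H2-K1. In the null Gr-1- library, H2-K1 at 712 FPKM was lowest, the 4 remaining Gr-1- libraries lying between 1283 and 1477 FPKM. These were the 5 values marked as far from their group, out of 54 groups of libraries looked at, where chance marks about 1 in 20.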

How the results depend on the processing

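H2-Eb1 stayed called under 18 of 18 alternatives (limma adjusted p 3.0e-04 to 0.049), and H2-Oa and H2-Ob under 17 of 17 (up to 0.00566 and 0.00206); a filter at a mean of 5 FPKM removes both, leaving 1 member called. Members called in the subset comparison numbered 6 under upper quartile scaling and under quantile normalization, which added H2-Aa, H2-Ab1 and H2-DMa, and 3 to 5 when a library was left out. The 5 came without the CEBPaCre Gr-1+ or without the null Gr-1- library, which added H2-Aa and H2-Ab1. Upper quartile scaling moved the all-gene median by -0.10 (subset), 0.13 (deletion) and 0.21 (interaction), and quantile normalization that of the interaction by 0.13; relative to the median, H2-DMa was 1.12 as deposited and 1.10 scaled, and Ciita -0.07 both ways. Genes called by subset were 2712 with the replicate block, 2376 with library weights and 1128 to 1578 leaving out a library; the block also called H2-DMa, Irf8, Rfxap and Pdia3, ended the call of H2-D1 and changed no other call among the members and the genes named by p from the pathway lists. Genes called by deletion were 673 with weights, 3 for null alone and 0 to 2551 leaving out a library (2551 without floxed, 6 without CD19Cre Gr-1+), with 0 members each time. Interaction calls were 5 under a pseudocount of 5 FPKM and both scalings, and 7 to 18 leaving out a library; without CD19Cre Gr-1+ this could not be fitted. The H2-DMa to H2-Aa difference was 2.55 to 3.27 and that of H2-DMb1 to H2-Ab1 1.90 to 2.21 leaving out a library, and 2.58 and 1.98 without both CD19Cre libraries, where 35 assignments cannot go below 0.0571. H2-Oa to H2-Aa was -0.61 at 0.1 FPKM, -0.013 without CD19Cre, -0.12 as the mean within genotypes (replicate block) and -0.14 to 0.73 leaving out a library; H2-Ob to H2-Ab1 was -1.36 at 0.1 FPKM, 0.91 at 5 FPKM and -0.50 to 0.27. Signs also turned for members that were not called. By subset, Ciita was -0.079 with upper quartile scaling and -0.012 with quantile normalization, and leaving out a library gave -0.35 to 0.20 for Ciita and -0.19 to 0.42 for H2-DMb2. By deletion, H2-Aa was 0.13 with upper quartile scaling, 0.18 with quantile normalization, 0.14 with weights and 0.081 with CD11cCre as deleted; null alone gave -0.54 for H2-Eb1, -0.016 for H2-Oa, -0.24 for H2-Ob and -0.33 for Ciita; quantile normalization gave -0.15 for H2-Ob and -0.048 for Ciita. Leaving out a library, the deletion values were -0.56 to 0.43 for H2-Aa, -0.38 to 0.53 for H2-Eb1, -0.15 to 0.21 for H2-Ob and -0.19 to 0.30 for Ciita. The interaction of H2-Oa was -0.053 at 5 FPKM and -0.025 with quantile normalization, and that of H2-Ob 0.023 with upper quartile scaling; leaving out a library gave -0.31 to 1.14 for H2-Ab1, -0.29 to 1.29 for Cd74, -0.18 to 0.85 for H2-DMa, -0.35 to 0.62 for H2-DMb1, -0.29 to 0.81 for H2-DMb2, -0.34 to 0.38 for H2-Oa and -0.40 to 0.36 for H2-Ob. The causes were not tested. The unknown depth limits H2-Oa and H2-Ob most, since they are under about 1 FPKM in Gr-1+.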
